A study of Mus musculus with 24 samples.

Results

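The 50 genes described here had far more reads in 1 of 4 cerebellum RNA-seq libraries, the first replicate at 79 weeks, than in any of the other 3, and 25 of them are on a list of 38 genes that mark the epithelium of the choroid plexus. The 50 genes were chosen on those read counts among 37991 gene identifiers. The list was drawn up with earlier results of these data known, so the overlap is a description. A gene's level was taken as its reads scaled to the library's total of gene reads (CPM), and a gene was chosen when its CPM was 3 or more in that library and at least 8 times the highest CPM of the other 3 libraries after 0.1 was added to the latter. This was met by 64 genes, 0.168% of all identifiers and 0.275% of those with a read in any library, and 14 of these were then left out by symbol because they are genes of motile cilia, potassium channels or collagens. Because the values themselves chose the genes, the size of their difference is given as a description. Tests between the ages that use that library are given further down and support nothing about age for these genes.

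The study compared the cerebellum at 7 and 79 weeks of age in male mice of the inbred strain C57BL/6J. Each age had 2 libraries of messenger RNA, made with the Universal Plus mRNA-Seq kit from RNA taken up in Trizol, and no group carried a treatment or an altered gene. The labels do not say whether the 2 libraries of an age come from separate mice, so p-values measure only the spread between libraries. Of 24 samples in the series, the 20 genomic ones were not analysed here.

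The choroid plexus is a folded sheet of secretory epithelium in the brain ventricles, including the one that lies under the cerebellum. Its cells make cerebrospinal fluid by moving ions and water from blood that leaks through fenestrated capillaries, and tight junctions between them close the barrier to the brain. They also release carrier proteins and growth factor regulators into the fluid, above all transthyretin, and take up vitamins and hormones from the blood. In RNA from a whole tissue, a difference in the number of cells of a type and a difference in RNA per cell cannot be told apart.

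The libraries held 16367656 and 21124608 gene reads at 7 weeks and 18901921 and 22826993 at 79 weeks, over 19626 to 20786 genes with a read. A count of 0 allows up to 3 reads, which is 0.131 to 0.183 CPM. Applied to each other library in turn, the same rule found 0 genes in both 7-week libraries and 1 gene (0.00263% of identifiers) in 79-week replicate 2. That gene was En1, a homeobox gene of the midbrain and hindbrain, with 277 reads there and 2 to 10 reads in the others. No other library therefore had a set of genes standing apart in this way.

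Promoter sequences were looked up for the genes because they were high together in 1 library. RefSeq (build GRCm38.p6) held 47 promoters of 40 of the 50 genes, each from 250 bases before to 50 after the start of transcription. Those of Aqp1, a water channel, and Kl, which encodes klotho, are shown first, as markers that differ in how many CG pairs they hold. Each is the 250 bases before the start on the plus strand, chr6:55336049-55336298 for Aqp1 and chr5:150952357-150952606 for Kl, with every CG in capitals.
Aqp1: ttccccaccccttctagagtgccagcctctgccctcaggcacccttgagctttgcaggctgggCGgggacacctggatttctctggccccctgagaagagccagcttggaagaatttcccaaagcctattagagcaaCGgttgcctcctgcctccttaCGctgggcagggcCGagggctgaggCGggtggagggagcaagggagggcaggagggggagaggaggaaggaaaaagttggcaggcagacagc
Kl: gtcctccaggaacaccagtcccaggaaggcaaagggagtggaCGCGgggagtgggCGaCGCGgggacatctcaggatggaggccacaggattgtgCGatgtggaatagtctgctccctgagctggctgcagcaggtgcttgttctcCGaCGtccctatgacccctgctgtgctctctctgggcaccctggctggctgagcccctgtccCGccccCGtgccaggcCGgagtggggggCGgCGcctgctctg

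Aqp1 had 5 CG pairs in this stretch and Kl had 13, and over the full window the ratio of observed to expected CG was 0.278 for Aqp1 and 0.570 for Kl. Over the 47 promoters, 16 (34.0%) had a ratio of observed to expected CG above 0.6, against 35.8% of 32851 promoters of the same length, and the median ratio was 0.430 against 0.384. The genes thus did not stand out from other promoters in this measure.

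The next pair is shown for motifs. Cldn2 (chrX:139800558-139800807, plus strand), which encodes the junction protein claudin-2, has TATAAA starting 35 bases before its start. Mfrp (chr9:44101520-44101769, plus strand), a gene for a frizzled-related membrane protein, has GGATTA, the reverse complement of TAATCC, starting 134 bases before its start. Those letters are in capitals.
Cldn2: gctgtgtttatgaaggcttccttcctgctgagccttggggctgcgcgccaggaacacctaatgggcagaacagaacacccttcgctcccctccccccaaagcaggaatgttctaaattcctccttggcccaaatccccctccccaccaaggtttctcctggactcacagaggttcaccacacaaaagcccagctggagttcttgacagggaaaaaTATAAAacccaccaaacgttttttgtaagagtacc
Mfrp: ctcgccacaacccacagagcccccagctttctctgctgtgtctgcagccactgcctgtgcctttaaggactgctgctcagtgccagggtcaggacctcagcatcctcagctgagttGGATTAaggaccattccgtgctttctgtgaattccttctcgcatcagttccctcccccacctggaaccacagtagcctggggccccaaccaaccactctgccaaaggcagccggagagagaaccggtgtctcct

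TAATCC, the letters that OTX homeobox proteins favour, was searched on both strands and found in 4 promoters of the genes (8.51%), those of Abca4, Gm853, Rbm47 and Mfrp, against 7.06% of all promoters. GTAAACA, a forkhead-type motif, was found on either strand in 3 (6.38%, against 3.65%), those of Igfn1, Ak7 and Prlr. GTTGCCAT, part of the X-box bound by RFX proteins, was found on either strand in 0 of 47 and in 1.35% of all promoters. TATAAA, searched on the plus strand of the gene only, was found in 4 (8.51%, against 8.32%), those of Abca4, Crhr2, Krt8 and Cldn2. No match of one motif overlapped a match of another. A match describes the letters in the window and is not a measured binding site.

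Transthyretin carries thyroid hormone and retinol in cerebrospinal fluid, and its gene Ttr (ENSMUSG00000061808) is the classic marker of the choroid plexus. Ttr had 3 and 9 reads at 7 weeks, 97720 in 79-week replicate 1 and 50 in 79-week replicate 2. These are 0.183, 0.426, 5170 and 2.19 CPM, and the exact Poisson interval of the high value is 5137 to 5202 CPM, with counting error only. The level in replicate 1 was 2360-fold that of the next library, its own age-mate. Of all reads of the 50 genes in 79-week replicate 1, 69.2% came from Ttr, while Ttr gave 0.108% to 1.31% in the other libraries.

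Folr1, Kl, Sostdc1 and Aqp1, further markers of the choroid plexus, showed the same split, for which the rule chose them. Folr1 (ENSMUSG00000001827), the folate receptor that carries folate across this epithelium, had 0 reads in both 7-week libraries, 301 in 79-week replicate 1 (15.9 CPM) and 2 in replicate 2. Kl (ENSMUSG00000058488), whose product is a co-receptor for FGF23 and is also shed into the fluid, had 12 and 27 reads at 7 weeks, 1936 in 79-week replicate 1 and 29 in replicate 2. Its 102 CPM in 79-week replicate 1 was 80.1-fold the highest of the others, which lay between 0.733 and 1.28 CPM and did not separate by age. Sostdc1 (ENSMUSG00000036169), a secreted inhibitor of BMP and Wnt signalling, had 1 and 1 reads at 7 weeks, 687 in 79-week replicate 1 (36.3 CPM) and 0 in replicate 2. Aqp1 (ENSMUSG00000004655), the apical water channel, had 1 and 2 reads at 7 weeks, 271 in 79-week replicate 1 (14.3 CPM) and 1 in replicate 2. Outside 79-week replicate 1, Folr1, Sostdc1 and Aqp1 were each at or under the 3 reads that a count of 0 allows, so no fold is given for them.

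**Figure D1:**
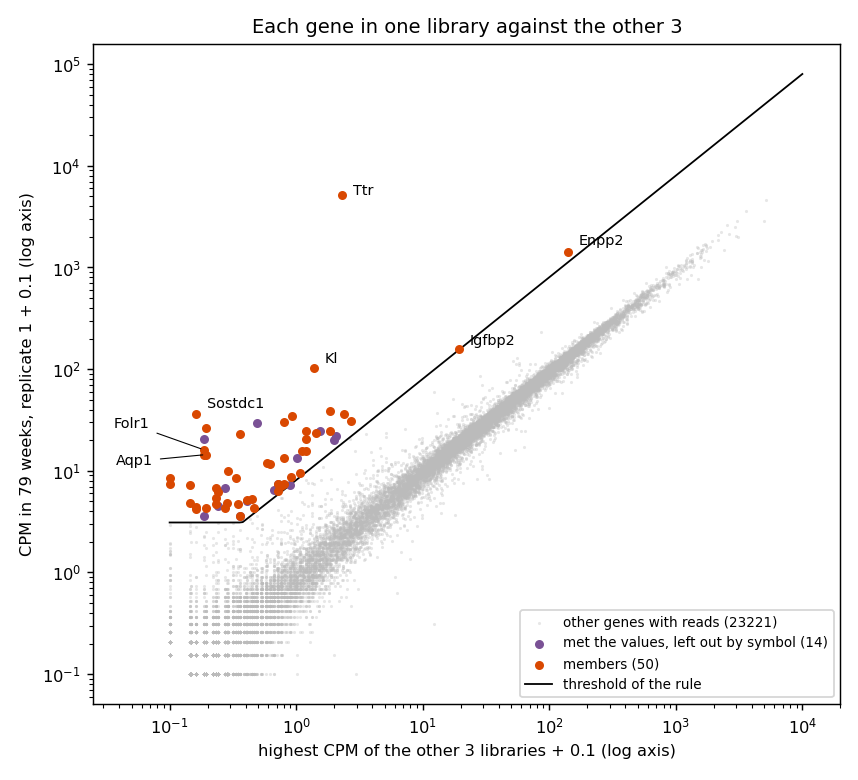
CPM of each gene in 79-week replicate 1 (vertical, log axis) against its highest CPM in the other 3 libraries (horizontal, log axis), 0.1 added to both, with the 50 genes in orange, the 14 left out by symbol in purple and the rule's threshold as a line. Ttr at 5170 CPM lies farthest from the bulk of genes, while Igfbp2 and Enpp2 lie just above the line.

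Over all 50 genes, 79-week replicate 1 held 141261 reads, 0.747% of its gene reads (95% Wilson interval 0.743% to 0.751%). The other libraries held 2786, 3804 and 3810 reads, or 0.0167% to 0.0180%. Without Ttr the summed level was 2304 CPM in 79-week replicate 1 and 165 to 180 CPM in the others. Without Ttr, Enpp2 and Igfbp2, the remaining 47 genes summed to 721 CPM in that library and to 14.0 and 19.2 CPM at 7 weeks and 24.3 CPM in 79-week replicate 2. Each of these sums had to be higher in that library, since the rule chose the genes for it.

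The ratio that the rule used, CPM in 79-week replicate 1 over the highest of the others plus 0.1, had a median of 19.96 and ran from 8.15 to 2257. It was above 50 for 10 genes, from 20 to 50 for 15 and below 20 for 25. All but Enpp2 and Igfbp2 were under 3 CPM in each of the other libraries, and the median gene stood at 0.122 and 0.189 CPM at 7 weeks, 9.58 CPM in 79-week replicate 1 and 0.329 CPM in 79-week replicate 2. Slc16a8 and Krt18 had 0 reads in all 3 other libraries. Genes with 0 reads numbered 8 and 12 of the 50 at 7 weeks and 7 in 79-week replicate 2.

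Secreted proteins made the first group by role, with 9 genes. Enpp2 encodes autotaxin, which makes lysophosphatidic acid and is also made by oligodendrocytes. It stood at 139.5 and 141.2 CPM at 7 weeks, 1425 CPM in 79-week replicate 1 and 131.0 CPM in replicate 2, a 10.1-fold excess over the next library. Igfbp2, a binding protein of insulin-like growth factors that other glia also make, stood at 16.5 and 19.2 CPM at 7 weeks, 157 CPM in 79-week replicate 1 and 9.42 CPM in replicate 2. These were the pair with a clear level in every library, and they carried the highest shares of their summed CPM outside 79-week replicate 1, at 22.4% and 22.3%.

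The other secreted proteins were low elsewhere. The gene 1500015O10Rik, also called Ecrg4 and coding for the secreted peptide precursor augurin, stood at 1.59 and 0.994 CPM at 7 weeks, 38.6 CPM in 79-week replicate 1 and 1.75 CPM in replicate 2. F5, coagulation factor V, had 0.183 and 0.284 CPM at 7 weeks against 30.3 and 0.701 CPM at 79 weeks. Lbp, the lipopolysaccharide-binding protein, had 1.16 and 1.75 CPM at 7 weeks against 24.5 and 1.27 CPM at 79 weeks. The folds over the next library were 22.0 for 1500015O10Rik, 43.2 for F5 and 14.0 for Lbp. Wfdc2, a small protease inhibitor of secretory epithelia, had 77 reads in 79-week replicate 1 and 1 read in all others together.

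Transport of ions, acid-base equivalents and water was represented by 5 genes, at 7.30 to 36.3 CPM in 79-week replicate 1. Slc4a5, the apical sodium bicarbonate cotransporter of the choroid plexus, stood at 1.10 and 1.89 CPM at 7 weeks, 36.3 CPM in 79-week replicate 1 and 2.28 CPM in replicate 2, 15.9-fold above the next library. Car12, a carbonic anhydrase of the cell surface, stood at 0.428 and 0.757 CPM at 7 weeks and 34.7 and 0.832 CPM at 79 weeks, a 41.6-fold excess. Trpv4, an osmosensitive cation channel, stood at 0.978 and 1.09 CPM at 7 weeks and 20.4 and 1.10 CPM at 79 weeks. In each of these 3 genes 79-week replicate 2 was the highest of the others. Aqp1 is given above, and Slc24a5, a cation exchanger known from pigment cells, stood at 7.30 CPM against at most 0.613 CPM.

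A pair of potassium channel genes met the values and was left out by symbol. Kcnj13, the inward rectifier of the apical membrane, stood at 0.428 and 1.23 CPM at 7 weeks, 24.3 CPM in 79-week replicate 1 and 1.45 CPM in replicate 2. Kcne2, a beta subunit of potassium channels, had 1 and 0 reads at 7 weeks, 387 in 79-week replicate 1 (20.5 CPM) and 2 in replicate 2. Both are on the choroid plexus list.

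Uptake of nutrients and other solutes was represented by 5 genes. Abca4, a lipid transporter best known from photoreceptors, stood at 1.53 and 2.60 CPM at 7 weeks, 30.7 CPM in 79-week replicate 1 and 2.32 CPM in replicate 2. Slc16a8, a lactate transporter of the choroid plexus and the retinal pigment epithelium, had 160 reads in 79-week replicate 1 (8.46 CPM) and 0 in the others, which makes it at least 46.2-fold higher when 3 reads are allowed to each. The metalloreductase gene Steap1 had 4 reads in each other library and 88 in 79-week replicate 1, or 4.66 CPM. Slc39a4, a zinc importer, stood at 4.18 CPM there and at most 0.367 CPM elsewhere. Folr1, given above, completes the group.

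Receptors numbered 3. Prlr, the prolactin receptor, stood at 0.550 and 0.710 CPM at 7 weeks, 24.6 CPM in 79-week replicate 1 and 1.10 CPM in replicate 2, a 22.5-fold excess over the next library. Htr2c, a serotonin receptor abundant in the choroid plexus and present in some neurons, stood at 0.122 and 1.33 CPM at 7 weeks, 23.4 CPM in 79-week replicate 1 and 1.01 CPM in replicate 2. For Htr2c the 7-week libraries differed from each other, at 2 and 28 reads, and 79-week replicate 2 lay between them. Crhr2, a receptor for the corticotropin-releasing hormone family, had 0 reads at 7 weeks and 99 and 3 reads at 79 weeks.

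Junctions and the cytoskeleton of epithelia gave 8 genes, at 4.18 to 15.4 CPM in 79-week replicate 1. Cldn2, the claudin of leaky epithelia that lets sodium and water pass between cells, stood at 0.183 and 0.994 CPM at 7 weeks, 15.4 CPM in 79-week replicate 1 and 1.01 CPM in replicate 2. Cldn1, a claudin of tight barriers, had 0 and 5 reads at 7 weeks, 157 in 79-week replicate 1 (8.31 CPM) and 2 in replicate 2. Krt8 and Krt18 form the keratin filaments of simple epithelia, which neurons and glia lack. Krt18 had 137 reads in 79-week replicate 1 (7.25 CPM) and 0 in the others, at least 39.5-fold higher with 3 reads allowed to each. Krt8 had 3 and 0 reads at 7 weeks and 89 and 0 at 79 weeks. Dsp, the desmosome protein desmoplakin, had 1 and 1 reads at 7 weeks and 87 and 3 at 79 weeks. Also in this group were Crb2, a polarity protein, Baiap2l1, an organiser of actin, and Myo5b, a motor of apical recycling.

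Motile cilia were represented by 7 genes despite the symbols left out, at 3.49 to 22.7 CPM in 79-week replicate 1 and at most 0.657 CPM in any other library. Drc7, a part of the dynein regulatory complex, had 1 and 0 reads at 7 weeks, 430 in 79-week replicate 1 (22.7 CPM) and 6 in replicate 2. Gmnc, which starts the multiciliated cell programme, had 2 and 5 reads at 7 weeks and 133 and 15 at 79 weeks. The others were Ttc21a of intraflagellar transport, the kinase gene Mapk15, the axonemal genes Ak7 and Spag6l, and Efcab1. Among the 14 genes left out by symbol were 9 of the same kind, of which Cfap65 stood highest, with 1 and 2 reads at 7 weeks and 550 and 9 at 79 weeks. Choroid plexus cells and ependymal cells both carry such cilia, and the part of each in these reads was not tested.

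The remaining 13 genes have other or less clear roles. Mfrp, known from the retinal pigment epithelium and the ciliary body, had 0 and 2 reads at 7 weeks, 495 in 79-week replicate 1 (26.2 CPM) and 0 in replicate 2. It overlaps C1qtnf5 in RefSeq, and without a known strand setting reads of these genes cannot be told apart. Tmem72 had 1 and 1 reads at 7 weeks, 270 in 79-week replicate 1 (14.3 CPM) and 2 in replicate 2. Rbm47, an RNA-binding protein of epithelia, stood at 8.52 CPM against at most 0.805 CPM, and Calml4, a protein of the brush border, at 6.67 CPM against at most 0.131 CPM. The others, Vwa3a, Wdr86, Fhad1, Igfn1, Zfp185, Prr32, Gm13111, Gm853 and 1 gene without a symbol, lay between 4.34 and 15.5 CPM.

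**Figure D2:**
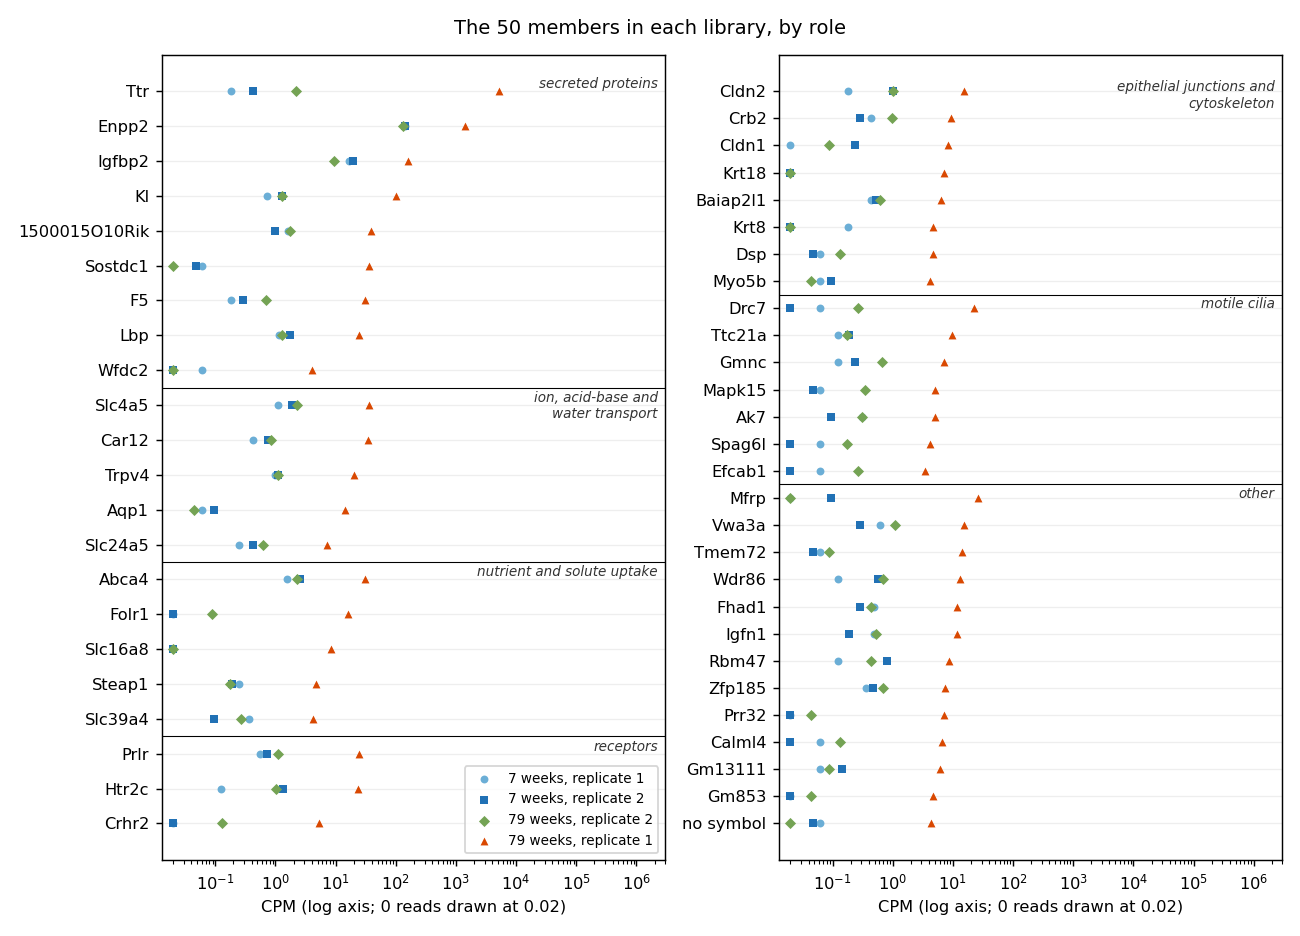
CPM of each of the 50 genes in each library (log axis, 0 reads drawn at 0.02), grouped by role, with circles and squares for 7 weeks, diamonds for 79-week replicate 2 and triangles for 79-week replicate 1. Every triangle lies to the right of the other 3 symbols, and Enpp2 and Igfbp2 are the genes with a level well above 3 CPM in all libraries.

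At the limits of the rule, the genes just inside the CPM limit were Efcab1 at 3.49, Wfdc2 at 4.07 and Spag6l at 4.18 CPM, and those just outside were Oca2 and Ccdc153, both at 2.96 CPM, and Tmprss11a at 2.86 CPM. Just inside the limit on the ratio were Igfbp2 at 8.15, Baiap2l1 at 8.75 and Crb2 at 8.80, and just outside were Msx1 at 7.59, Maats1 at 7.06 and Cdh3 at 6.92. Oca2 and Msx1 are on the choroid plexus list and Ccdc153 is on the ependymal list, so the limits cut through genes of these kinds.

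The choroid plexus list holds 13 genes besides the 25 that were chosen, and it was drawn up with earlier results of these data known. Of these 13, Kcne2 and Kcnj13 met the values of the rule, so 27 of the 38 genes were highest in 79-week replicate 1 by choice. The other 11 also stood highest in that library. Among them 9 passed the filter on low counts, and all 9 were highest there, against 34.2% of all genes that passed it. The median difference between 79-week replicate 1 and the mean of the others, on the scale of log2(CPM + 0.5), was 1.62 over these 9 genes and 0.04 over all genes that passed the filter. The list was known to be high in this library when it was drawn up, so the count is a description. Ace, which encodes the angiotensin-converting enzyme, stood at 18.1 and 21.0 CPM at 7 weeks, 85.2 CPM in 79-week replicate 1 and 28.4 CPM in replicate 2. Igf2, a growth factor of choroid plexus and meninges that the rule leaves out by name, stood at 75.5 and 86.3 CPM at 7 weeks, 233 CPM in 79-week replicate 1 and 73.9 CPM in replicate 2. The chloride channel gene Clic6 stood at 7.09 and 10.4 CPM at 7 weeks, 59.7 CPM in 79-week replicate 1 and 12.1 CPM in replicate 2. Like Enpp2, these had a clear level in all libraries. Their ratio to the next library was smaller than that of Enpp2, and the reason was not tested.

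Transcription factors of the choroid plexus showed smaller ratios too. Otx2, a homeobox factor that choroid plexus cells need, stood at 7.21 and 15.4 CPM at 7 weeks and 43.0 and 21.4 CPM at 79 weeks. Msx1 stood at 2.02 and 1.61 CPM at 7 weeks and 20.4 and 2.58 CPM at 79 weeks. Lmx1a, a factor of the roof plate and of unipolar brush cells, stood at 0.122 and 0.426 CPM at 7 weeks and 3.07 and 1.84 CPM at 79 weeks. In Otx2 and Lmx1a both 79-week libraries were above both 7-week ones. Gmnc was the 1 of 13 genes on the list of transcription factors that met the rule.

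**Figure D3:**
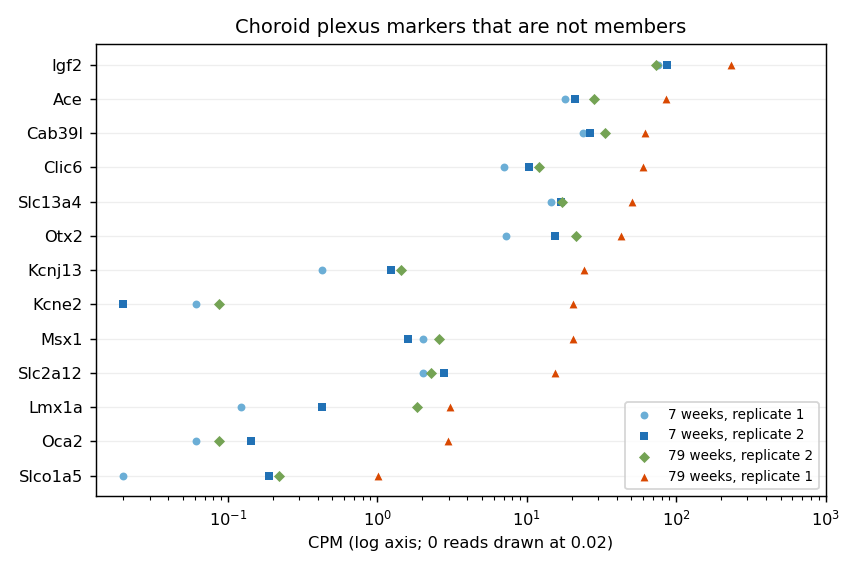
CPM in each library (log axis, 0 reads drawn at 0.02) of the 13 choroid plexus list genes that are not among the 50, with the same symbols by library. The triangle of 79-week replicate 1 is farthest right in each row, from 1.01 CPM for Slco1a5 to 233 CPM for Igf2.

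Between the ages, edgeR's quasi-likelihood test with all 4 libraries called 1352 of 15292 genes at an adjusted p below 0.05, 8.84% of those tested, with 637 higher (4.17%) and 715 lower at 79 weeks. Of the 50 genes 23 passed the filter on low counts and 0 were called, with 22 at an unadjusted p below 0.05. DESeq2, which gave all 50 an adjusted p, called 8 of them and 1259 of 14993 genes in all (8.4%). Ttr had a log2 fold change of 12.90 (SE 3.42, adjusted p = 0.0588 in edgeR) and Kl one of 5.56 (SE 1.77, adjusted p = 0.0942 in edgeR). The log2 fold changes of the 23 ran from 2.15 to 12.90, with adjusted p from 0.0588 to 0.213. Since the rule used these libraries, neither the count nor the fold changes support anything about age. Folr1, Sostdc1 and Aqp1 did not pass the filter.

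Set against 7 weeks, 79-week replicate 2 alone gives a view that does not use the library with the high values, although the rule did use its maximum. It was above both 7-week libraries for 28 of the 50 genes, below both for 7 and between or tied for 15. Of the 23 that passed the filter on low counts it was above both for 16, against 47.7% of all genes that passed, but the reads of 79-week replicate 1 counted towards passing. The median difference of 79-week replicate 2 from the 7-week mean, on the scale of log2(CPM + 0.5), was 0.19 for the 50 genes, most of which rest on a few reads here, and 0.05 over all genes tested.

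In a fit without 79-week replicate 1, where the lone 79-week library is assumed to vary like those at 7 weeks, edgeR called 1579 of 15856 genes (9.96%), and 5.1% were called higher. Of the 24 genes among the 50 that were tested, 2 were called. Ttr was higher at 79 weeks by 2.72 on the log2 scale (SE 0.57, adjusted p = 0.00216), from 3 and 9 reads to 50. Igfbp2 fell by 0.97 on the log2 scale (SE 0.16, adjusted p = 0.000121), from 16.5 and 19.2 CPM to 9.42 CPM. Igfbp2 was therefore lowest in one 79-week library and highest in the other.

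On the choroid plexus list, 24 of 38 genes were tested with all libraries, and edgeR called only Lmx1a, against 8.84% of all genes tested. Lmx1a rose from 0.122 and 0.426 CPM to 3.07 and 1.84 CPM (SE 0.54 on the log2 scale, edgeR adjusted p = 0.0196). Without 79-week replicate 1, which leaves a lone 79-week library, the list genes that edgeR called were all higher at 79 weeks. These were Ttr, as above, and Lmx1a, Otx2 and Ace, at log2 fold changes of 2.59 (SE 0.62), 0.84 (SE 0.21) and 0.48 (SE 0.13). The list was drawn up with earlier results of these data known, so these calls are a description and support nothing about age.

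The composition of the 50 genes' reads also differed between libraries. Enpp2 gave 78.4% to 82.0% of them outside 79-week replicate 1 and 19.1% in it. Across the 50 genes, Spearman's rho between 79-week replicate 1 and each other library was 0.485, 0.649 and 0.607, and among the other 3 it was 0.815 to 0.858. These are correlations across genes with shared library depths, in which many values rest on under 10 reads, and are given as a description.

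Other sources in or near the cerebellum were checked with marker lists, each summed in CPM per library. Ependymal and motile cilium genes summed to 181 and 186 CPM at 7 weeks, 345 CPM in 79-week replicate 1 and 260 CPM in replicate 2, and 31 of 35 stood highest in 79-week replicate 1. Fenestrated endothelium and stroma genes summed to 69.0 and 89.8 CPM at 7 weeks, 118.8 CPM in 79-week replicate 1 and 88.4 CPM in replicate 2, and 7 of 8 stood highest there, led by Dcn at 31.5 CPM and Igfbp6 at 23.6 CPM. Plvap, the diaphragm protein that defines fenestrated capillaries, was the exception, at 20.5 and 19.98 CPM at 7 weeks, 21.7 CPM in 79-week replicate 1 and 23.0 CPM in replicate 2. Meninges and arachnoid genes summed to 840 and 1036 CPM at 7 weeks, 1243 CPM in 79-week replicate 1 and 901 CPM in replicate 2, and 14 of 18 stood highest there, led by Ptgds at 1002 CPM and Fmod at 35.8 CPM. Ptgds alone gave most of the sum in 79-week replicate 1. The collagen genes Col1a1, Col1a2 and Col3a1 were among those not highest there, at 14.5, 34.5 and 3.60 CPM against up to 15.3, 37.5 and 9.84 CPM at 7 weeks. Of all genes that passed the filter on low counts, 34.2% stood highest in 79-week replicate 1, but not every gene of these lists passed it. The part of these lists in the result was not tested. The choroid plexus list summed to 300.2, 339.6, 7731 and 344 CPM in the same order, but its level is not comparable with theirs, since 25 of its genes were chosen for their excess.

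Lists for tissues outside the cerebellum that share some of the 50 genes were summed in the same way. Liver makes transthyretin, Lbp and factor V. Its 12 marker genes summed to 2.75 to 4.07 CPM in each library, led by Cps1 at 1.16 CPM and Cyp2e1 at 1.06 CPM. Alb, the defining gene of liver, had at most 2 reads in any library, and Fgb and Ahsg had 0 in all. Kidney tubule cells make klotho and Aqp1. Their list without Calb1 and Pvalb, which cerebellar neurons also express, summed to 0.916 to 1.45 CPM, and Slc34a1, Kap and Cdh16 had 0 reads in each library. Calb1 and Pvalb themselves stood at 888 and 418 CPM in 79-week replicate 1, and the full kidney list was at 1307 CPM there and 1316 to 1444 CPM in the others. The liver list stood at 4.07 and 3.90 CPM in the 79-week libraries, and neither form of the kidney list was highest in 79-week replicate 1. The part of either tissue in the result was not tested.

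Retinal pigment epithelium shares Mfrp, Slc16a8 and Abca4 with the choroid plexus. Its list summed to 30.1 and 30.7 CPM at 7 weeks, 47.9 CPM in 79-week replicate 1 and 38.6 CPM in replicate 2, led by Mitf at 17.5 CPM and Rdh5 at 16.1 CPM. In 79-week replicate 1, 7 of its 12 genes stood highest, against 34.2% of all genes that passed the filter on low counts, which most of the 12 did not pass. Rpe65, its defining enzyme, stood at 0.0611 and 0.426 CPM at 7 weeks, 1.48 CPM in 79-week replicate 1 and 0.219 CPM in replicate 2, and the pigment enzyme gene Tyr had 0 reads in each. The pineal gland list summed to 1.09 to 2.50 CPM, led by Aanat at 0.846 CPM and Gngt2 at 0.741 CPM in 79-week replicate 1, and Crx had 0 reads in each library. Their part in the result was not tested.

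Brainstem and midbrain neuron genes summed to 42.3 and 49.9 CPM at 7 weeks, 66.5 CPM in 79-week replicate 1 and 77.3 CPM in replicate 2, so here the second 79-week library was highest. They were led in 79-week replicate 1 by Slc6a5 at 42.2 CPM and Th at 23.3 CPM. Th stood at 1.65 and 7.76 CPM at 7 weeks and at 36.8 CPM in 79-week replicate 2. With all libraries it was called higher at 79 weeks (log2 fold change 2.56, SE 0.49, edgeR adjusted p = 0.0226). Which cells the reads of this list come from was not tested. Border macrophage genes, led by Stab1 and Mrc1 at 10.4 and 2.59 CPM, summed to 15.8 to 21.0 CPM. Red blood cell genes, led by Bpgm and Hbb-bs at 44.9 and 30.4 CPM, summed to 100.5 to 125.4 CPM. Neither was highest in 79-week replicate 1.

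Genes of position along the brain did not mark which choroid plexus. The telencephalic list summed to 0.131 to 0.550 CPM, led in 79-week replicate 1 by Ins2 at 0.317 CPM and Otx1 at 0.159 CPM, and Emx2 and Six3 had 0 reads in each library. On the hindbrain list, Meis1 stood at 67.1 CPM and Shh at 8.31 CPM in 79-week replicate 1, and the 9 Hox genes together had 1 read in that library and 1 or 2 in each of the others. The hindbrain list summed to 75.4 CPM there and 67.4 to 70.2 CPM elsewhere. At this depth neither the telencephalic list nor the Hox genes give a level that could place the epithelium. Meis1 and Shh were well above that limit, but which cells their reads come from was not tested.

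**Figure D4:**
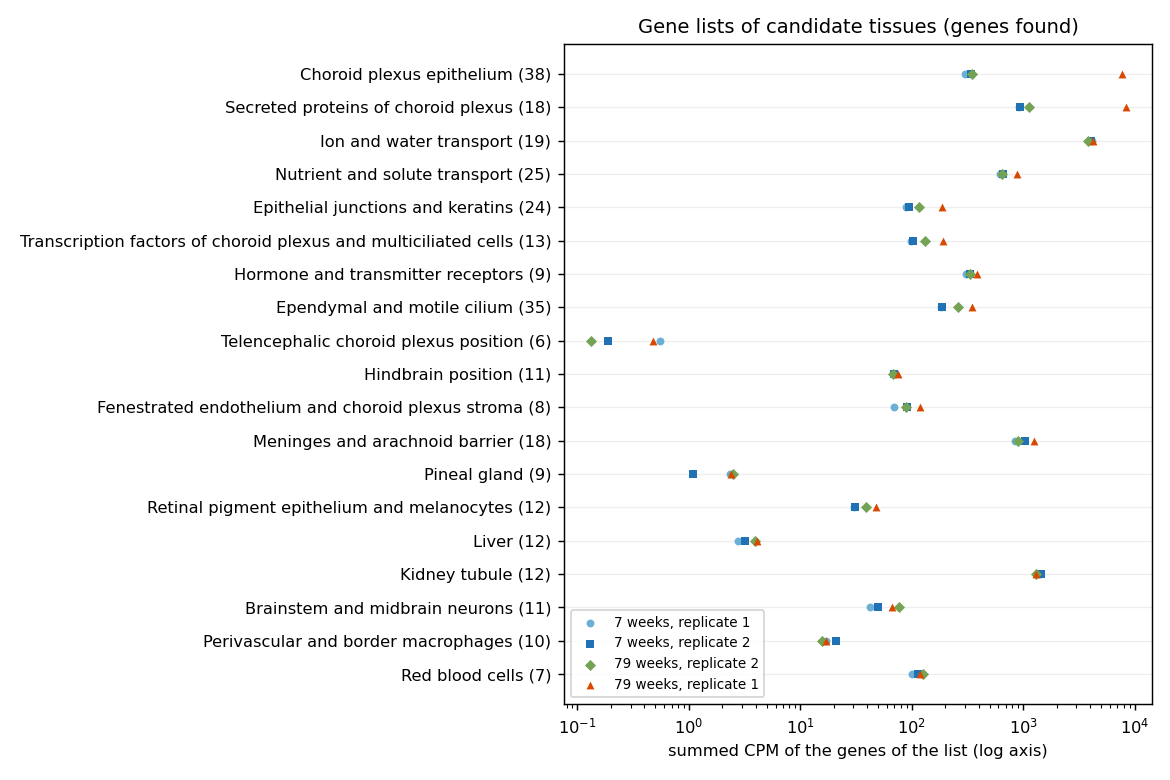
Summed CPM (log axis) of each marker list in each library, with the number of genes found in brackets and the same symbols by library. The choroid plexus epithelium list and the list of its secreted proteins, which reach 7731 and 8307 CPM in 79-week replicate 1, are the rows where the triangle stands far from the others, and both hold Ttr and Enpp2, which were chosen for that excess.

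Lists of what the choroid plexus does hold some of the 50 genes, which fix part of their sums. The secreted protein list, with 9 of the 50, Ttr and Enpp2 among them, summed to 921 and 944 CPM at 7 weeks, 8307 CPM in 79-week replicate 1 and 1128 CPM in replicate 2. The nutrient and solute list, with 5 of the 50, summed to 878 CPM in that library and 613 to 665 CPM in the others, and the list of junctions and keratins, with 4 of the 50, to 186 CPM against 89.5 to 116 CPM.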

How the data were processed

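Messenger RNA of cerebellum was sequenced in 4 libraries, 2 at 7 and 2 at 79 weeks. The authors deposited 1 table of unnormalized counts for each library, with Ensembl identifiers, after trimming with cutadapt, alignment to mm9 with STAR and counting with HTSeq, per the submitters' processing notes, without versions. Neither annotation release nor strand setting is given in the sources used here, and 8 of 49 genes found in RefSeq overlap a protein-coding gene. HTSeq summary lines were taken off, and 8.02% to 8.25% of reads per library were aligned to more than 1 place and not counted. Of 37991 identifiers, 32919 had a symbol.

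The choice of the 50 genes, their roles and the 19 marker lists (262 of 267 genes found) were made with earlier results of these data known. CPM here is a gene's reads over the library's gene reads, not corrected for length, so levels are not compared between genes. Differences in log2 use a pseudocount of 0.5 CPM. Ages were compared in R 4.3.3 by edgeR 4.0.16 (quasi-likelihood F test, TMM factors 0.981 to 1.023, filterByExpr with minimum count 10 and total 15, Benjamini-Hochberg over all genes tested, threshold 0.05), tested on simulated data. Alternatives were RLE and library-size scaling, no filter, DESeq2 1.42.0, a replicate block, each library left out, and other limits of the rule. A crossed block was added after the data were seen. Intervals are 95%, by Wilson for shares and exact Poisson for counts, and cover counting error only.

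Named genes are the markers Ttr, Folr1, Kl, Sostdc1 and Aqp1, the 12 genes highest in CPM in 79-week replicate 1, up to 5 of the 50 per list, the genes on either side of each limit, the 2 highest genes of lists holding none of the 50, and the 3 with the highest share outside that library. Other names, such as defining markers of a list, genes called on a list and those given for a role, were chosen after their values were seen. Some genes on the lists are not reported here.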

Additional observations from a re-analysis of the deposited data

How the results depend on the processing

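The 50 genes depend on the limits of the rule, with 31 at a ratio of 16, 24 at a floor of 10 CPM and 79 at a floor of 1 CPM, and 50 to 58 when 1 of the other libraries was left out. Counts of calls between ages moved with the libraries used. The count over all genes (1352) was 1259 in DESeq2, 3051 without the low-count filter and 0 to 2425 with 1 library left out, namely 0 when 7-week replicate 1 was left out (2610 at an unadjusted p below 0.05), 175 for 7-week replicate 2, 1579 for 79-week replicate 1 and 2425 for 79-week replicate 2. Of the 50 genes, 50 were called without the filter, 8 by DESeq2 and 0 to 50 with 1 library left out, namely 0 for either 7-week library, 2 for 79-week replicate 1 and 50 for 79-week replicate 2. On the choroid plexus list (1 called), these counts were 38, 3 and 0 to 38, with 0 for either 7-week library, 4 for 79-week replicate 1 and 38 for 79-week replicate 2. These counts are out of 15292 genes tested with the filter, 23285 without it and 15757 to 16175 with 1 library left out. In DESeq2 14993 genes had an adjusted p, and 8.4% were called, against 8.84% in edgeR with all libraries. With the replicate block, 10 of 23 genes among the 50 and 10 of 24 on the list were called, and 1396 of 15292 over all genes. The shared replicate numbers are not said to pair libraries, and the differences between replicates 1 and 2 correlated at -0.108 between ages over 15292 genes. The crossed block, with its numbers exchanged at 1 age, called 2014 of 15292 genes, 21 of the 23 tested among the 50 and 21 of 24 on the list. With library-size scaling 65.1% of calls were higher at 79 weeks, against 47.1% with TMM. RLE and library-size scaling each left 0 of the 50 and 1 of the list called. The log2 fold changes of Ttr and Kl were positive in every fit run, but the rule chose for this wherever 79-week replicate 1 was used. Without that library they were 2.72 for Ttr and 0.26 for Kl. Folr1, Sostdc1 and Aqp1 had no value in the edgeR fit with all libraries and the filter, so their changes under alternatives are not given. A left-out library leaves 1 at its age, assumed to vary like the others, and the cause of these changes was not tested. Because the rule chose the 50 genes on these libraries, their counts of calls are a description and support nothing about age. The same holds for the list, which was drawn up with earlier results of these data known. Genes with 1 to 3 reads in a library are at the limit of this depth.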

Other observations

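Some genes on the lists of choroid plexus and ciliated cells, none of them among the 50, were called higher at 79 weeks by edgeR with similar levels in both 79-week libraries. They were chosen after their values were seen. Trp73, a factor of multiciliated cells, stood at 8.31 and 8.80 CPM at 7 weeks and 16.6 and 19.5 CPM at 79 weeks (log2 fold change 1.02, SE 0.13, edgeR adjusted p = 0.00883). Dnah11, an axonemal dynein, stood at 31.8 and 38.2 CPM at 7 weeks and 70.3 and 76.3 CPM at 79 weeks (log2 fold change 1.01, SE 0.10, edgeR adjusted p = 0.00402). Vipr2, a receptor for vasoactive intestinal peptide, stood at 13.1 and 12.1 CPM against 20.8 and 24.3 CPM, and the junction protein gene Cgn at 16.8 and 17.1 CPM against 29.7 and 27.2 CPM. These genes kept their call and direction without 79-week replicate 1.

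Others were called higher with the larger value in 79-week replicate 1. Foxj1, the main factor of motile cilia, which the rule leaves out by name, stood at 5.44 and 4.26 CPM at 7 weeks and 20.6 and 9.24 CPM at 79 weeks (log2 fold change 1.57, SE 0.36, edgeR adjusted p = 0.0389). Spint2, a protease inhibitor of epithelia, stood at 20.04 and 20.3 CPM at 7 weeks and 52.9 and 31.2 CPM at 79 weeks (edgeR adjusted p = 0.0339, SE of the log2 fold change 0.22). Both were also called without 79-week replicate 1, at log2 fold changes of 0.89 and 0.58. Tekt1, a protein of ciliary microtubules, stood at 0.305 and 0.189 CPM at 7 weeks and 4.66 and 1.05 CPM at 79 weeks (log2 fold change 3.45, SE 0.81, edgeR adjusted p = 0.0423) and was not called without 79-week replicate 1 (edgeR adjusted p = 0.0697). Col3a1, a fibrillar collagen on the meninges list, fell by 1.44 on the log2 scale (SE 0.19, edgeR adjusted p = 0.00903), from 9.84 and 8.33 CPM to 3.60 and 3.33 CPM. On that list 14 of the 18 genes stood highest in 79-week replicate 1, against 34.2% of all genes that passed the filter on low counts.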
